A study of Homo sapiens with 8 samples.

Results

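The AP-1 transcription factors are described here in PANC-1 cells, a long-established human line that was derived from pancreatic duct cancer. The cultures received 10 μM eupalinolide B (EB), a compound of the plant Eupatorium lindleyanum, or the vehicle DMSO for 24 h, and mRNA was sequenced from 4 libraries per group. The study lists them as biological replicates of 1 cell line at 1 dose and 1 time. The deposited table holds 20263 genes as TPM, a gene's part of all transcripts in the library, corrected for length and scaled to the same sum everywhere. The length correction allows a rough comparison between genes, although the difference between the groups still varied with transcript length, as described below. The members are the rows whose human Ensembl identifier maps to FOS, FOSB, FOSL1, FOSL2, JUN, JUNB, JUND, BATF3, ATF2 or JDP2, which gave 10 of 20263 genes. They were chosen by family and with the differences between EB and DMSO in these same libraries already known. Their differences are therefore given as a description without a p-value, and nothing is concluded from how many of them moved.

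AP-1 is a family of dimers of basic leucine zipper (bZIP) proteins, in which the zipper holds a pair of partners together and the basic regions grip the DNA. FOS proteins cannot pair with themselves and need a JUN partner, whereas JUN proteins pair with themselves, with FOS proteins or with ATF2. The canonical site of FOS and JUN pairs is TGACTCA, and pairs with ATF proteins favor TGACGTCA. FOS, FOSB and JUN are immediate early genes, switched on within minutes by growth factors and stress through mitogen-activated protein kinases (MAPK), and FOSL1 is a later, more stable member that accumulates under lasting ERK signaling in many carcinomas.

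RefSeq promoter windows (GRCh38.p14, 250 bases before to 50 bases after the transcript start) were given for 7 of the 10 genes. They are FOS, FOSB, FOSL2, JUN, JUNB, JUND and JDP2, the last with 3 windows. The 100 bases before the start are shown for 5 of them, because they show which letters the inducible FOS and FOSB share and where JUN differs from JUNB and JUND. Capitals mark TGACGT, TGACATCA and TATAAA on either strand. The windows are chr14:75278728-75278827 (plus strand) for FOS, chr19:45467896-45467995 (plus) for FOSB, chr1:58784048-58784147 (minus) for JUN, chr19:12791386-12791485 (plus) for JUNB and chr19:18281623-18281722 (minus) for JUND.
FOS: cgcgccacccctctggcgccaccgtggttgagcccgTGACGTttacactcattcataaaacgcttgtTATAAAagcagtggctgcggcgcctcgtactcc
FOSB: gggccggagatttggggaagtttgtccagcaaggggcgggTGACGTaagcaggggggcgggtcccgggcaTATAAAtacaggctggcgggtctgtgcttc
JUN: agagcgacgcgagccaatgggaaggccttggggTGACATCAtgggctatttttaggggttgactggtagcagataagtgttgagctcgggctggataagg
JUNB: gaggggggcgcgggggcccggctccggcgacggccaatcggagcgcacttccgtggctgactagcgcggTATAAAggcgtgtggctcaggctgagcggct
JUND: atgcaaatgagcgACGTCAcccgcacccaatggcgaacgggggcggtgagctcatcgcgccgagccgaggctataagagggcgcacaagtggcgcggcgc

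FOS and FOSB had the same arrangement, TGACGT followed by TATAAA. In FOS these letters began 64 and 33 bases before the start, and in FOSB 60 and 30 bases before it. The 7 genes have 9 windows, and the shares of all 35116 windows given here count windows and not genes. TGACGT, the core of the site that CREB and ATF proteins bind, was in 7.98% of all windows. It stood in windows of 5 of the 7 genes, namely FOS, FOSB, FOSL2, JDP2 and JUND. In FOSL2 it began 66 bases before the start, close to its place in FOS and FOSB, and in a JDP2 window 97 bases before it. In JUND it lay 87 bases before the start on the opposite strand, and also 198 and 200 bases before it as both strands of a full TGACGTCA, which 1.85% of all windows held. JUN carried TGACATCA 67 bases before the start (2.61% of windows), a variant that JUN and ATF2 pairs are known to occupy. The canonical TGACTCA was found in FOSL2 alone of the 7, at position 5 after the start (4.95% of windows). TATAAA was found in FOS, FOSB and JUNB (11.5% of windows). These matches are letters in a window and not evidence of binding.

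With DMSO the JUN genes were the most abundant members and FOSL1 was by far the most abundant FOS gene. The mean TPM was 187 for JUND, 130.5 for JUN, 114 for JUNB and 85.6 for FOSL1. ATF2 followed at 28.3, FOSL2 at 6.58, FOS at 2.81, JDP2 at 2.35, FOSB at 0.712 and BATF3 at 0.621. The ranges of the 4 libraries were apart only between FOSL1 and ATF2, between ATF2 and FOSL2 and between JDP2 and FOSB. JUND was still above JUN, and JUN above JUNB, within each of the 4 libraries. JUNB was above FOSL1 in 3 of the 4. With EB the order was headed by FOSL1 at 397, ahead of JUN at 230 (229.6), JUND at 181 and JUNB at 91.3, and the ranges of these 4 genes and ATF2 did not touch. Below them ATF2 (9.31), BATF3 (8.94), FOS (8.13), FOSL2 (4.28), JDP2 (3.66) and FOSB (3.03) overlapped from each gene to the next. By its mean, FOSL1 thus stood in place 4 of the members with DMSO and in place 1 with EB.

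The comparison of EB with DMSO was fitted with limma to log2(TPM + 1) values of the 11725 genes that reached 1 TPM in 4 or more libraries. All 10 members passed this filter. BATF3 and FOSB passed it through the EB libraries alone, since no DMSO library reached 1 TPM. A gene was called at a Benjamini-Hochberg adjusted p under 0.05 over all genes tested. FOS, FOSB, FOSL1, JUN and BATF3 were called higher with EB (5 of 10 members, where 15.2% of all tested genes were called higher) and ATF2 was called lower (1 of 10, where 25.1% were). FOSL2, JUNB, JUND and JDP2 were not called. The 4 EB values lay above all 4 DMSO values in the same 5 genes, as in 16.6% of all tested genes, and below them in ATF2, as in 20.3%. FOSL1 and BATF3 also passed the study's own thresholds, a p under 0.05, taken here as unadjusted, and a log2 fold change above 1.5, which 0.537% of tested genes passed upward and 1.54% downward. Others passed 1.5 in some alternatives, namely FOSB (1.97) and ATF2 (−1.51) with a pseudocount of 0.1, FOS (1.52) with quantile normalization, and ATF2 with mitochondrial genes removed (−1.61) and without DMSO replicate 1 (−1.52), DMSO replicate 4 (−1.64) or EB replicate 2 (−1.52). The median log2 fold change was 0.62 over the members and −0.11 over all tested genes.

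**Figure D1:**
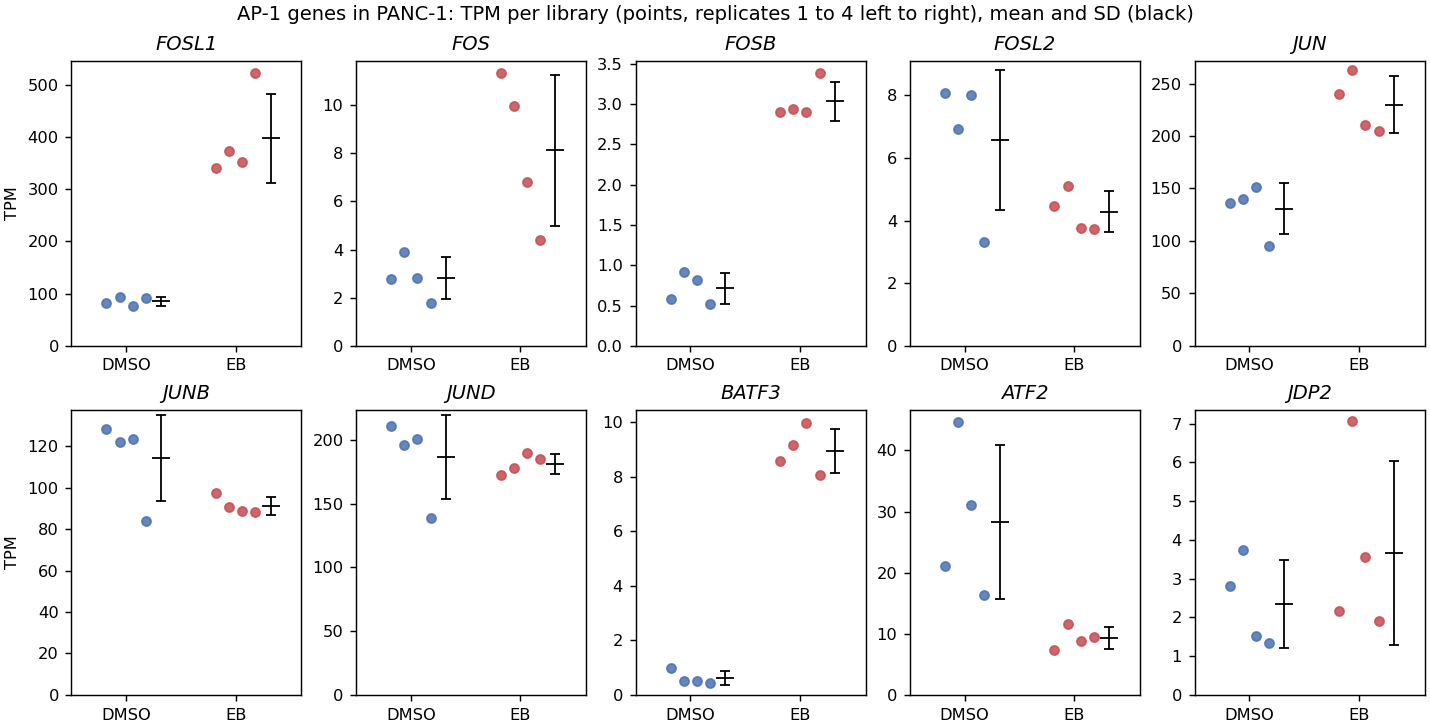
TPM of each AP-1 gene (y axis, linear and starting at 0, with a scale of its own in each panel) in the 4 DMSO (blue) and 4 EB (red) libraries, with the mean and SD in black. FOSL1, FOS, FOSB, JUN and BATF3 have all EB points above all DMSO points, ATF2 has all below, and in JUNB, JUND and FOSL2 DMSO replicate 4 lies under the other DMSO libraries.

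FOSL1 encodes FRA-1, a FOS protein without the strong activation domain of FOS. FOSL1 (ENSG00000175592, hg38 chromosome 11, 65892049 to 65900573, minus strand) had a TPM of 81.3, 93.2, 75.6 and 92.5 in DMSO replicates 1 to 4 and of 341, 373, 351 and 523 in EB replicates 1 to 4. Its EB libraries were all well above the DMSO libraries, and EB replicate 4 was above the other 3. The lowest EB value was 3.66 times the highest DMSO value. The means were 397 ± 84.9 and 85.6 ± 8.65 TPM (SD, n = 4 each) with EB and DMSO, a ratio of 4.64 and a log2 fold change of 2.18 (standard error 0.16). Among the 10 genes FOSL1 combined a high level with a large difference.

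FOS, the founding member with a strong activation domain and a short-lived mRNA, stayed low in both groups. FOS (ENSG00000170345, chromosome 14, 75278826 to 75282230, plus strand) had 2.77, 3.89, 2.81 and 1.78 TPM with DMSO and 11.35, 9.97, 6.79 and 4.40 TPM with EB. The groups did not overlap, but the lowest EB library was only 1.13 times the highest DMSO library. The EB libraries spread more than the DMSO libraries, at 8.13 ± 3.14 against 2.81 ± 0.862 (SD, n = 4 each), and the log2 fold change was 1.22 (standard error 0.27). EB replicate 4 was the lowest EB library for FOS and the highest for FOSL1.

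FOSB, an immediate early gene best known from neurons, was close to the floor of the filter. FOSB (ENSG00000125740, chromosome 19, 45467995 to 45475179, plus strand) had 0.584, 0.918, 0.820 and 0.525 TPM with DMSO and 2.90, 2.94, 2.89 and 3.39 TPM with EB. All EB libraries were at least 3.15 times the highest DMSO library, and they lay close together. The log2 fold change was 1.24 (standard error 0.12) and understates the ratio of the means, 4.26, because the pseudocount of 1 weighs on low genes. FOSB overlaps ERCC1 on the opposite strand in GENCODE release 44, and whether reads were counted by strand is not given in the sources used here.

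FOSL2, which encodes FRA-2, was the FOS gene that did not stand higher with EB. FOSL2 (ENSG00000075426, chromosome 2, 28392448 to 28417317, plus strand) had 8.06, 6.93, 8.01 and 3.33 TPM with DMSO and 4.48, 5.11, 3.77 and 3.74 TPM with EB. The 3 higher DMSO libraries were above all EB libraries and DMSO replicate 4 was below them, so that the groups overlapped (log2 fold change −0.47, standard error 0.23, not called). Without DMSO replicate 4 the log2 fold change was −0.72 and FOSL2 was called lower.

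JUN, the partner that FOS proteins need and the best known substrate of the JUN N-terminal kinases, was higher with EB in every library. JUN (ENSG00000177606, chromosome 1, 58776845 to 58784048, minus strand) had 136, 140.2, 151 and 95.3 TPM with DMSO and 240.1, 263, 210.5 and 205 TPM with EB. The lowest EB library was 1.36 times the highest DMSO library. The means were 229.6 ± 27.2 and 130.5 ± 24.4 TPM (SD, n = 4 each), a log2 fold change of 0.82 (standard error 0.17). In absolute TPM the mean difference of JUN was second to that of FOSL1 among the members, while in fold it was smaller than those of BATF3, FOSL1, FOSB and FOS.

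JUNB and JUND, which often restrain JUN and of which JUND is the steadily expressed one, did not share this shift. JUNB (ENSG00000171223, chromosome 19, 12791486 to 12793315, plus strand) had 128, 122, 123 and 83.7 TPM with DMSO and 97.5, 90.7, 88.7 and 88.2 TPM with EB. Its EB libraries lay below 3 DMSO libraries and above DMSO replicate 4 (log2 fold change −0.30, standard error 0.15, not called). JUND (ENSG00000130522, chromosome 19, 18279694 to 18281622, minus strand) had 211, 196, 201 and 138.5 TPM with DMSO and 172, 178, 189.9 and 185 TPM with EB. Its groups overlapped in the same way (log2 fold change −0.02, standard error 0.15, not called), and its sign differed between alternatives, from −0.23 with quantile normalization to 0.11 with median-ratio scaling. JUNB overlaps HOOK2 on the opposite strand. FOSL2, JDP2 and ATF2 each overlap a long non-coding RNA gene on the opposite strand (FOSL2-AS1, JDP2-AS1 and ENSG00000229750). JUN, JUNB and JUND have 1 exon each in their canonical transcripts, the other members 3 to 14.

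DMSO replicate 4 stood apart in the whole series, with 39% of its TPM on mitochondrially encoded genes against 17.01% to 21.1% in the other DMSO libraries and 11.6% to 20.3% in the EB libraries. Every member but FOSL1 had its lowest DMSO value in that library. With the mitochondrial genes removed and the rest rescaled, this was still so for FOS, FOSL2, JUN, JUNB and JUND, and no longer for FOSB, BATF3, ATF2 and JDP2. On this scale JUNB had 137 to 156 TPM with DMSO and 101 to 111 with EB, so that its groups no longer overlapped and it was called lower (log2 fold change −0.49). JUND then had 227 to 254.5 TPM with DMSO and 195 to 232 with EB, which still overlapped (−0.21, not called). JUN stayed higher on this scale (0.64), as it did without DMSO replicate 4 (0.68). FOSL2 was called lower on this scale too (−0.64), with 5.46 to 10.2 TPM against 4.29 to 5.99.

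BATF3 is a short bZIP protein without an activation domain that pairs with JUN proteins and is best known for the development of cross-presenting dendritic cells. It had the largest log2 fold change of the members. BATF3 (ENSG00000123685, chromosome 1, 212686417 to 212699840, minus strand) had 0.984, 0.527, 0.525 and 0.449 TPM with DMSO and 8.57, 9.17, 9.97 and 8.07 TPM with EB. The lowest EB library was 8.20 times the highest DMSO library, and the means were 8.94 ± 0.816 and 0.621 ± 0.245 TPM (SD, n = 4 each). The log2 fold change was 2.62 (standard error 0.14) with a pseudocount of 1 and 3.70 with a pseudocount of 0.1. Of 12 markers of dendritic cells and other leukocytes, 11 were below 1 TPM in all 8 libraries and 5 of them, PTPRC, CLEC9A, FLT3, CD3E and LYZ, were at 0 in all. The remaining marker, ZBTB46, was not called (4.37 TPM with DMSO, 5.08 with EB). The summed level of the list was 4.02 to 6.96 TPM with DMSO and 5.69 to 5.95 TPM with EB.

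ATF2, a JUN partner that binds the TGACGTCA type of site and is phosphorylated by p38 and JNK, was the member that was lower with EB. ATF2 (ENSG00000115966, chromosome 2, 175072250 to 175168382, minus strand) had 21.1, 44.7, 31.0 and 16.3 TPM with DMSO and 7.34, 11.55, 8.82 and 9.52 TPM with EB. The DMSO libraries spread widely and yet the lowest of them was 1.41 times the highest EB library. The means were 9.31 ± 1.75 and 28.3 ± 12.6 TPM (SD, n = 4 each), so that ATF2 was 3.04 times as high with DMSO (log2 fold change −1.42, standard error 0.28). JDP2, a repressor that pairs with JUN proteins and ATF2, had 2.81, 3.74, 1.52 and 1.33 TPM with DMSO and 2.15, 7.06, 3.55 and 1.90 TPM with EB. JDP2 (ENSG00000140044, chromosome 14, 75427716 to 75474111, plus strand) lies downstream of FOS on the same strand, and its groups overlapped throughout (log2 fold change 0.41, standard error 0.34, not called). Without EB replicate 2, its highest library, the log2 fold change of JDP2 was 0.11.

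The make-up of the family shifted toward FOS genes, because FOSL1 gained more than the JUN genes did. The summed TPM of FOS, FOSB, FOSL1 and FOSL2 was 92.7, 105.0, 87.2 and 98.1 in the DMSO libraries and 360.2, 391, 365 and 534 in the EB libraries. The sum of JUN, JUNB and JUND was 475, 458, 475 and 317 with DMSO and 509.9, 532, 489 and 478 with EB, so that the groups were just apart, the lowest EB value lying next to the highest DMSO value. With the mitochondrial genes removed and the rest rescaled, the EB and DMSO libraries overlapped in this sum. The ratio of the FOS sum to the JUN sum was 0.229 ± 0.0566 (SD, n = 4) with DMSO and 0.826 ± 0.196 (SD, n = 4) with EB. It ranged from 0.183 to 0.309 with DMSO and from 0.706 to 1.12 with EB, with replicate 4 the highest in each group. FOSL1 took 89.4% ± 3.39 of the FOS sum with DMSO and 96.1% ± 1.33 with EB (SD, n = 4 each), and FOS took 2.93% ± 0.803 and 2.10% ± 0.9998. Within the JUN sum, JUN took 30.2% ± 1.33 with DMSO and 45.6% ± 3.22 with EB (SD, n = 4 each), JUNB 26.5% ± 0.435 and 18.2% ± 0.862, and JUND 43.3% ± 0.968 and 36.2% ± 2.96. These shares within a library do not depend on its mitochondrial share, and for each of the 3 JUN genes the EB and DMSO libraries did not overlap. In bulk RNA, more cells that express a gene and more RNA per cell cannot be told apart.

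**Figure D2:**
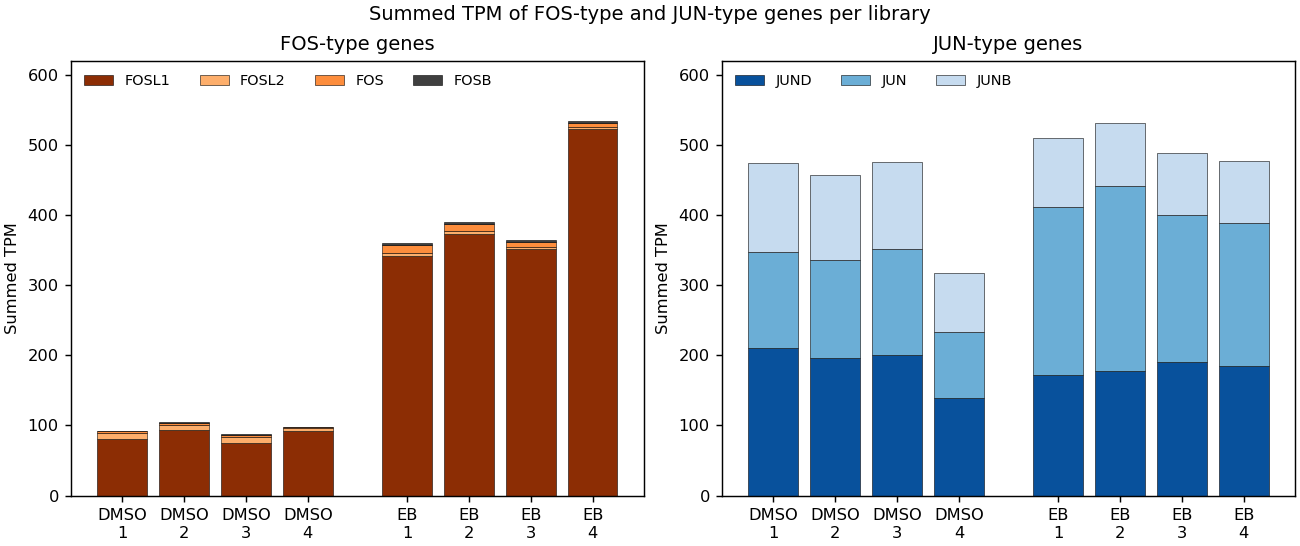
Summed TPM (y axis, linear and starting at 0) of the 4 FOS-type genes (left) and the 3 JUN-type genes (right) in each DMSO and EB library, stacked by gene. The FOS sum is 87.2 to 105.0 TPM with DMSO and 360.2 to 534 with EB and is nearly all FOSL1, while the JUN sum changes less and its JUN layer widens.

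The fold change of a gene in these libraries was lower the longer its transcript. Its median was 0.41 on the log2 scale in the shortest of 10 equal classes of nuclear genes, with transcripts of up to 1225 bases, and −0.54 in the longest, from 7317 bases up. BATF3 (836 bases) falls in class 1 and FOSL1 (1702) in class 2. FOS (2104), JUNB (1830) and JUND (1929) fall in class 3, FOSB (3775) and JUN (3257) in class 6, ATF2 (4164) in class 7, JDP2 (5378) in class 8 and FOSL2 (6713) in class 9. When the dependence on length and GC content was taken out of every library, the log2 fold change was 2.29 for BATF3, 2.02 for FOSL1, 1.45 for FOSB, 1.13 for FOS, 0.96 for JUN and −1.17 for ATF2. These 6 genes remained called in the same direction. FOSL2 was at −0.02 after this step and JUNB at −0.43, which was called lower. What lies behind the trend on length was not tested.

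**Figure D3:**
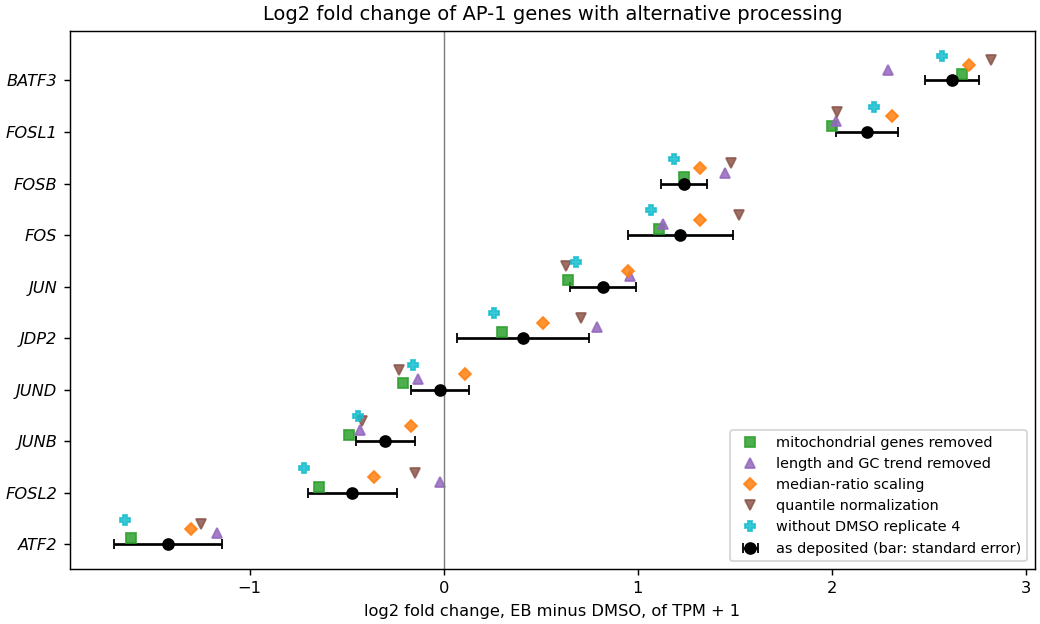
Log2 fold change (x axis, EB minus DMSO, TPM + 1) of each AP-1 gene as deposited (black, with standard error), with 4 other scalings and without DMSO replicate 4. All members but JUND, the called and the uncalled ones, keep their side of 0 in the settings shown, and JUND lies on both sides of it. FOSL2 is at −0.02 with the length and GC trend removed.

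The genes whose levels followed BATF3 most closely over the 8 libraries, by Pearson's r of log2(TPM + 1), were CTSL, HSPA14 and FARSB, each at r = 0.996. CTSL, the lysosomal protease cathepsin L, had 134 TPM with DMSO and 358 with EB. For ATF2 they were BMPR1A (0.986), PRKCI (0.984) and SLC6A16 (0.983), all lower with EB. The 8 libraries fall into the EB and DMSO groups and are shared by all genes, and the r is given as a description only.

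Other bZIP genes show how the members compare with genes of the same protein type, whether or not these pair with AP-1 proteins. Of 42 such genes 36 were tested, 7 of which rose (19.4%, beside 15.2% of all tested genes) and 8 of which fell (22.2%, beside 25.1%), with a median log2 fold change of −0.02 against −0.11 for all tested genes. These shares were close to those of all genes, and 5 to 13 fell with single libraries left out, 13 without DMSO replicate 4. DDIT3, which encodes the stress factor CHOP, rose most, from 11.2 ± 1.11 to 45.0 ± 17.4 TPM (SD, n = 4 each, log2 fold change 1.85, limma adjusted p = 0.000591). CEBPB, a regulator of inflammatory and metabolic genes, rose from 40.8 ± 7.29 to 119 ± 6.28 TPM (1.54, limma adjusted p = 0.000144). CREM, a CREB relative, rose by 1.18 and ATF3, a stress-induced partner of JUN, by 1.15 on the log2 scale. CEBPD fell by 1.63, the clock output gene DBP by 1.6, NFE2L3 by 0.99 and CREB3L3 by 0.73. ATF7, the closest relative of ATF2, was chosen after its values were seen and had 8.92 TPM with DMSO and 8.66 with EB (−0.02, not called). The difference between ATF7 and ATF2 was not tested.

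The list of kinases and phosphatases around AP-1 held 42 genes, some acting on AP-1 proteins and many on MAPK or the kinases above them. Of these genes 35 were tested, 6 rose (17.1%, beside 15.2% of all tested genes) and 7 fell (20.0%, beside 25.1%). The median log2 fold change was −0.09. These shares too were close to those of all genes. RPS6KA2, which is among the 6 that rose, passed the filter through the EB libraries alone. With median-ratio scaling 11 rose, and 4 fell without EB replicate 1 and 13 without DMSO replicate 4. Of the 6 that rose, DUSP5, DUSP2, DUSP1 and DUSP14 encode dual-specificity phosphatases, most of them switches that turn MAPK off again. The other tested DUSP genes did not rise. DUSP16 was called lower (12.97 TPM with DMSO, 8.07 with EB, −0.60), although its groups overlapped, and DUSP6, DUSP7, DUSP8 and DUSP9 were not called. DUSP5 rose from 3.30 ± 0.148 to 17.2 ± 2.33 TPM (SD, n = 4 each, 2.08, limma adjusted p = 1.28e-05), DUSP2 by 1.37, DUSP1 by 1.09 and DUSP14 by 0.66 on the log2 scale. MAP3K1 fell by 0.88, MAP2K5 by 0.74, MAPK3, which encodes ERK1, by 0.62, and GSK3B, which marks JUN for degradation, by 0.61. GSK3B was at −0.11 and not called with the length and GC trend removed. The JNK genes MAPK8 (7.00 and 5.10 TPM, −0.41) and MAPK9 (31.0 and 29.1 TPM, −0.09), chosen after their values were seen, were not called. mRNA levels do not measure the activity of a kinase.

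Factors that switch on AP-1 gene promoters were mostly lower. Of 14 genes 13 were tested, and 9 fell, 69.2% of those tested where 25.1% of all tested genes fell, with a median log2 fold change of −0.92. EP300, an acetyltransferase and coactivator, fell from 30.6 ± 4.73 to 8.78 ± 3.02 TPM (SD, n = 4 each, −1.73, limma adjusted p = 0.000471). STAT3 fell by 1.67, CREBBP, the coactivator related to EP300, by 1.23, although its groups overlapped, and SP1 by 1.12 on the log2 scale. CREBBP was not called without DMSO replicate 2 or 3 or EB replicate 3. The transcripts of this list are long, with a median of 5580 bases against 3222 for all tested nuclear genes. With the length and GC trend removed, 8 were called lower and 2 higher, where the main fit called 0 higher. SRF, the factor of the serum response element, which was chosen after its values were seen, had 33.2 TPM with DMSO and 24.4 with EB and was not called (−0.40).

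Among 17 genes for the degradation of AP-1 proteins, all tested, 1 rose (5.88%, beside 15.2% of all tested genes) and 4 fell (23.5%, beside 25.1%), with a median log2 fold change of 0.06. With median-ratio scaling 7 rose, and with single libraries left out 2 to 6 fell. CUL4B, a ubiquitin ligase scaffold, fell by 0.90, FBXW7, the ligase subunit that recognizes JUN, by 0.72, ITCH, a ligase for JUN and JUNB, by 0.66 and CUL4A, whose groups overlapped, by 0.56 on the log2 scale. With the length and GC trend removed, FBXW7 (−0.31), ITCH (−0.19) and CUL4A (−0.14) were no longer called, and 3 genes of the list were called higher and 1 lower. CUL4A also lost its call without each library other than DMSO replicate 4, and FBXW7 without DMSO replicate 2 or 3 or EB replicate 3 or 4. FBXW7 had 5.11 ± 2.23 TPM with DMSO and 2.61 ± 0.774 with EB (SD, n = 4 each, limma adjusted p = 0.0377). PSMC5, a proteasome ATPase, rose by 0.68.

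The other immediate early genes split in both directions. Of 34 genes 31 were tested, 13 rose, 41.9% of those tested where 15.2% of all tested genes rose, and 7 fell (22.6% where 25.1% fell), with a median log2 fold change of 0.31. EGR4 and ARC, both among those that rose, passed the filter through the EB libraries alone, since no DMSO library reached 1 TPM. CCN1, a matrix protein, rose from 35.1 ± 6.13 to 172 ± 16.96 TPM (SD, n = 4 each, 2.27, limma adjusted p = 3.09e-05), KLF2 by 2.20, EGR1, a target of the same MAPK route as FOS, by 1.37 and EGR4 by 1.27 on the log2 scale. BTG2, an antiproliferative gene, fell from 82.4 ± 9.62 to 14.1 ± 1.35 TPM (SD, n = 4 each, −2.47, limma adjusted p = 8.64e-06), TSC22D1 by 1.89, NFKBIA, the inhibitor of NF-κB, by 1.37 and KLF9 by 1.20. ATF3 and MAFF stand on this list and on that of the bZIP genes, and DUSP1 on this list and on that of the phosphatases.

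Genes with known AP-1 sites, which the family is able to bind, more often stood higher than lower where they were tested. Of 47 such genes 23 were tested, of which 9 rose (39.1%, beside the 15.2% of all tested genes) and 3 fell (13.0%, beside 25.1%), and the median log2 fold change was 0.27. Those not tested were low, among them MMP1, MMP3, MMP13, IL6 and PTGS2 at or close to 0 TPM. TNF was not tested either, and had 0.716 to 1.69 TPM with DMSO and at most 0.136 with EB. Without the filter 11 were called higher and 4 lower. The tested transcripts are short, with a median of 2358 bases against 3222 for all tested nuclear genes. With the length and GC trend removed, 9 were called higher and 2 lower. HMOX1, heme oxygenase, rose from 18.3 ± 5.32 to 102.5 ± 7.95 TPM (SD, n = 4 each, 2.47, limma adjusted p = 6.62e-05). PLAUR, the urokinase receptor, rose from 5.75 ± 2.30 to 28.0 ± 2.93 TPM (2.18, limma adjusted p = 0.000397). HBEGF, a ligand of the EGF receptor, rose by 1.49 and S100A2 by 1.45 on the log2 scale. AREG, another ligand of that receptor, fell by 0.86, the hyaluronan receptor CD44 by 0.79 and IL11 by 0.76. CD44 was at −0.39 and not called with the length and GC trend removed, and IL11 was not called without DMSO replicate 1 or 2 or EB replicate 3 or 4. Many of these genes answer to other factors too, and the part of AP-1 in their levels was not tested.

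**Figure D4:**
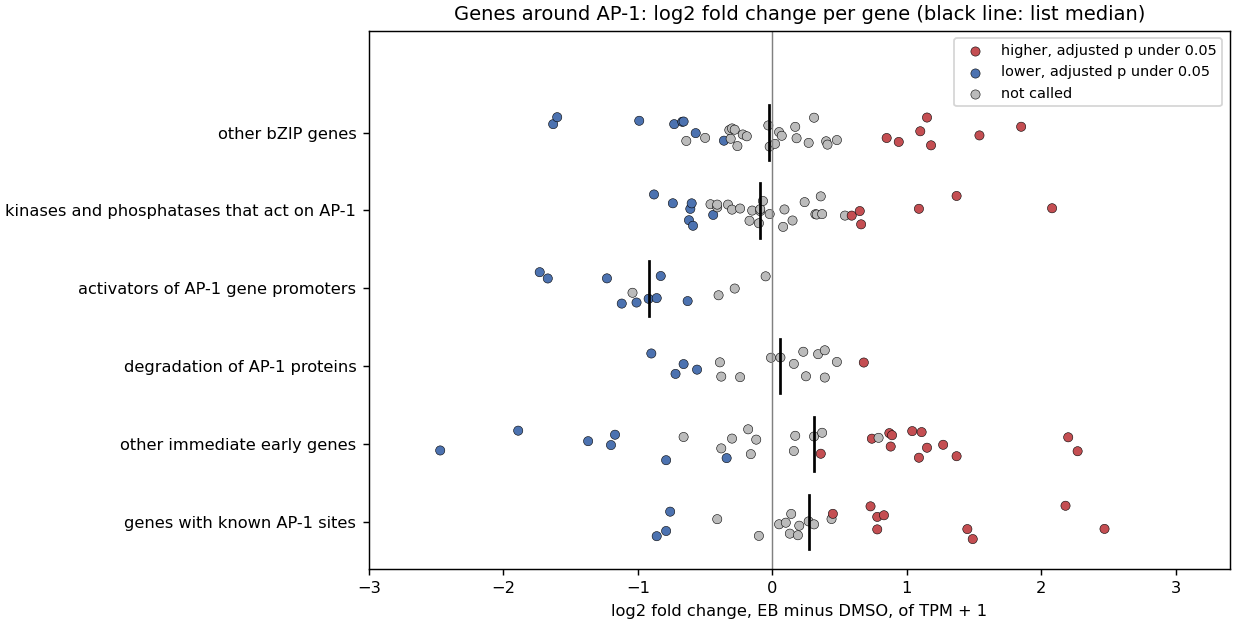
Log2 fold change (x axis, EB minus DMSO, TPM + 1) of each tested gene on 6 lists of genes around AP-1 (y axis), colored by whether limma called it higher (red), lower (blue) or not (grey), with the list median as a black line. The activators of AP-1 gene promoters sit to the left with a median of −0.92, and the other immediate early genes reach from −2.47 to 2.27.

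The label of the cells was checked against markers. Of 9 markers of duct epithelium, KRT8, KRT18, KRT19, SOX9 and MUC1 were at 1 TPM or more in all 8 libraries, while KRT7, EPCAM, CDH1 and CFTR were below 1 TPM in all. The summed level of the list was 1145 to 1613 TPM with DMSO and 3267 to 3654 TPM with EB, and its part in the results on AP-1 was not tested. KRT8, KRT18 and KRT19 rose, by 1.20, 1.49 and 1.80 on the log2 scale. SOX9 fell by 1.38 and MUC1 fell by 2.04. All 11 markers of acinar, islet and endothelial cells were below 1 TPM in all libraries. Each library held 11353 to 11894 genes at 1 TPM or more.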

How the data were processed

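RNA sequencing of 8 PANC-1 libraries was used, 4 with EB and 4 with DMSO. The authors deposited TPM per gene, scaled to a fixed sum in each library. The study's methods describe trimming, mapping and normalization with CLC Genomics Workbench, and HISAT2 and StringTie are also named. As genome, the sources (methods and the submitters' processing notes) give mouse builds (GRCm38, mm10) as well as hg38. The identifiers are human, and 20148 of 20263 matched a symbol. No read counts were used, so depth and counting error are unknown here. Columns headed C were read as DMSO and those headed H as EB, a letter that the sources used here do not explain.

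The values were used as log2(TPM + 1) and tested by limma 3.58.1 in R 4.3.3 (lmFit, eBayes, no block), in genes that reached 1 TPM in 4 or more libraries, with Benjamini-Hochberg adjustment over all 11725 of them. The pseudocount shrinks the fold of low genes. Positions, transcript lengths (canonical transcripts) and overlaps come from GENCODE release 44 on hg38, promoter windows from RefSeq, and tables and plots were made with Python 3.11.15, pandas 2.3.3, numpy 2.4.6 and matplotlib 3.10.9. The members and the lists, compiled from general knowledge, were chosen with earlier results of these data known. Named are all members, of each list the called genes with the 4 largest rises and 4 largest falls, and 3 genes most like BATF3 and ATF2, with exceptions stated. One of the genes chosen as duct markers was left out and is not reported here. The alternatives changed the pseudocount (0.1), the filter (none, or 5 TPM), the scaling (median-ratio or quantile normalization), and further included removal of mitochondrial genes, removal of the trend on length and GC content, an intensity trend, a fold threshold of 1, a replicate block and leaving out each library. The fit was tested on simulated data.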

Additional observations from a re-analysis of the deposited data

Results flagged for a closer look

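In each of the 20 combinations of an AP-1 gene and a group, the highest and the lowest of the 4 libraries were compared with the rest by Dixon's ratio, and 3 libraries stood out. Chance marks about 1 in 20 such groups. JUNB in DMSO replicate 4 was at 83.7 TPM, under the 122 to 128 TPM of the other DMSO libraries, and this is the library in which mitochondrial genes took 39% of the TPM. BATF3 in DMSO replicate 1 was at 0.984 TPM, above the 0.449 to 0.527 TPM of the other DMSO libraries and still far under the lowest EB library at 8.07 TPM. FOSB in EB replicate 4 was at 3.39 TPM, above the other EB libraries at 2.89 to 2.94 TPM.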

How the results depend on the processing

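The calls of FOSL1, BATF3, JUN, FOS, FOSB and ATF2 held in every alternative in which the gene was tested. Their log2 fold changes, in this order, were 2.0 to 2.31, 2.29 to 3.70, 0.63 to 0.96, 1.05 to 1.52, 1.19 to 1.97 and −1.64 to −1.17. The alternatives refit the same libraries whose differences were known when the members were chosen, and give no separate support. BATF3 and FOSB passed the filter of the main fit through the EB libraries alone. At a TPM of at least 5, FOS, FOSB and JDP2 were not tested, so that 3 members were higher. JUNB was called lower with quantile normalization (2 members lower), with mitochondrial genes removed (3, with FOSL2), with the length and GC trend removed (2) and without DMSO replicate 4 (3). Leaving out each library gave 1 to 3 members lower. Of all tested genes, 1785 were higher and 2944 lower (37.7% higher). The higher count was 3146 with median-ratio scaling (51.2%), 2782 with quantile normalization (50.2%) and 2853 with the length and GC trend removed (52.8%), and the lower count 4954 with mitochondrial genes removed (22.7% higher). The median of all genes moved from −0.11 to 0.01, 0.02, 0.02 and −0.28 in these 4. Past the study's thresholds, 63 were higher and 181 lower (25.8% higher). These became 137 and 388 with a pseudocount of 0.1, 293 and 780 with a fold threshold of 1, and 99 and 109 with quantile normalization (47.6% higher). The lower count was 330 with mitochondrial genes removed (11.5% higher), 109 with the length and GC trend removed (39.8% higher), and 148 to 298 with each library left out, highest without DMSO replicate 4 (15.1% higher).

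Of the lists, other bZIP genes had 5 lower at a TPM of at least 5, 14 with mitochondrial genes removed and 5 to 13 with each library left out. Kinases and phosphatases had 11 higher with median-ratio scaling, 12 higher and 4 lower with the length and GC trend removed, 16 lower with mitochondrial genes removed and 4 to 13 lower with each library left out. Both lists had 13 lower without DMSO replicate 4, the bZIP genes 5 lower without DMSO replicate 1 or 3 or EB replicate 3 or 4, and the kinases 4 lower without EB replicate 1. Activators had 2 higher with the length and GC trend removed. Degradation had 7 higher with median-ratio scaling, 3 with quantile normalization, 3 higher and 1 lower with the length and GC trend removed, and 1 to 3 higher (3 without DMSO replicate 1) and 2 to 6 lower with each library left out (6 without DMSO replicate 4, 2 without DMSO replicate 2 or 3 or EB replicate 3 or 4). Immediate early genes had 7 higher at a TPM of at least 5, and genes with AP-1 sites 5 lower with mitochondrial genes removed. Of the genes named from the lists as the 4 largest rises and falls none changed sign, but a call was lost in 28 of the values under alternatives. With the length and GC trend removed these were GSK3B (−0.11), CUL4A (−0.14), ITCH (−0.19), FBXW7 (−0.31) and CD44 (−0.39), with quantile normalization CREB3L3, FBXW7 and IL11, with no filter CUL4A and FBXW7, and with single libraries left out CREBBP, CUL4A, FBXW7 and IL11. Fewer genes were tested at a TPM of at least 5, and otherwise the cause was not tested. The replicate numbers were not used to pair the libraries in the main fit. The r of the deviations was 0.18, 0.05, −0.09 and 0.28 for numbers 1 to 4, and not every library followed its own number best. Whether equal numbers mark paired cultures was not tested. With a replicate block 2231 genes were higher and 3525 lower, against 1785 and 2944 without it. Degradation then had 2 genes higher, and the members' calls were the same. Read depth was not available.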
